A study of Mus musculus with 4 samples.

Results

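The 10 genes described here encode receptor tyrosine kinases of melanoma cells: *Axl*, *Ddr2*, *Pdgfra*, *Met*, *Pdgfrb*, *Igf1r*, *Fgfr1*, *Insr*, *Erbb2* and *Egfr*. They were taken by gene symbol from a table of 16537 genes, and all 10 were found. The cells were YUMM1.7, a mouse melanoma line whose engineered alleles include activated *Braf* and inactivated *Cdkn2a*. They carried no further edit, and both fractions share these alleles because they are parts of the same cells. Cells were grown overnight on porous membranes whose lower face was coated with fibronectin at 30 µg/mL, so that protrusions grew through the pores. Protrusions (RNA left in the membrane after the top was scraped and swabbed) and cell bodies (the scraped material) were each sequenced as 2 biological replicates of 6 inserts. The data describe 1 cell line on 1 matrix coating.

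A receptor tyrosine kinase spans the plasma membrane, binds a ligand outside the cell and phosphorylates tyrosines on itself and its partners inside. Adaptor proteins then dock on these phosphotyrosines and pass the signal to the RAS and phosphoinositide 3-kinase pathways. In melanoma these receptors are known for driving migration and invasion, and for sustaining growth when BRAF is inhibited. Because they are membrane proteins, their mRNAs are translated at the endoplasmic reticulum. The comparison asks how the mRNAs that encode them were divided between protrusions and cell bodies.

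Values are TPM (an mRNA's share of a library's RNA, corrected for transcript length), so levels can be compared between genes. Between 25835707 and 30967895 reads were assigned to genes in a protrusion library, and between 25884081 and 29270310 in a cell body library, as recovered from the TPM. The 10 receptors were covered by 260 to 39549 reads in a library. Of the defining melanocyte markers, *Pax3* was at 13.0 and 12.4 TPM in protrusions, against 12.7 and 14.6 in cell bodies, and *Mitf* was at 5.45 and 6.17 TPM, against 5.12 and 5.93. The pigment genes *Tyr* and *Pmel* and the receptor gene *Ednrb* stayed below 1 TPM in all 4 libraries, and *Sox10*, *Tyrp1*, *Dct*, *Mlana* and *Kit* were not analysed here. The labelled cell type therefore rests on 2 of the 5 markers measured, of 10 listed. Summed hepatocyte markers stood apart in 1 library, with 59.5 TPM in protrusion replicate 1 and 2.51 in protrusion replicate 2, against 0.844 and 2.31 in cell bodies. *Alb* (albumin) was the most abundant of them, with 28.4 and 0.46 TPM in protrusions, against 0.0635 and 0.264 in cell bodies. *Apoa2* and *Fabp1* came next, and 0 of the 5 tested passed limma (0 lower and 3 higher with replicates as a block, *Alb* and *Fabp1* among them, and 0 in either direction at an unadjusted p under 0.05). The 7 endothelial markers were all below 1 TPM, and of the melanocyte markers neither tested gene passed (adjusted p of 0.707 for *Pax3* and 0.834 for *Mitf*). Among all tested genes, limma called 4.25% lower and 2.99% higher in protrusions at an adjusted p under 0.05. With the block the shares were 13.3% and 8.08%, and at an unadjusted p under 0.05, 18.7% and 12.6%.

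In the annotation of GRCm38 (mm10, GENCODE), every one of the 10 genes was long. Their transcripts ran from 4265 to 11409 bases, with a median of 6822, against a median of 2995 bases over 10549 tested coding genes. All 10 lay above that median, and so did their coding lengths (2502 to 4140 bases, against 1389) and their 3′ UTRs (1048 to 7267 bases, against 969). *Igf1r* had the longest 3′ UTR of the 10 and *Erbb2* the shortest. GC content was not uniform: it ran from 44.4% in *Egfr* to 57.3% in *Erbb2*, and 4 of the 10 lay above the median of 50.1%. Which isoform the cells express was not measured.

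The localization element the study dissected is a GA-rich stretch of a 3′ UTR. For this reason the 25-base window with the most purines (A or G, with at least 5 G) was found in each receptor's annotated 3′ UTR. It is shown for the receptor with the highest share in protrusions (*Ddr2*), for both that fell there (*Pdgfra* and *Met*) and for the one with the most purine-rich window (*Igf1r*). The longest unbroken run of A and G is in capitals, and the other letters are in lower case. The sequences are read 5′ to 3′ on the transcript strand, as DNA letters.
Ddr2: AAGAAGAAAAAAAAAtatagagcag
Pdgfra: tggaaatggatggacAAGAGAGtga
Met: gtgtatAGAAGAAAGAAAGGGtcag
Igf1r: AAAAAAAAGAAAAGGAAAGAAAAAG
The *Ddr2* window has 22 purines and starts at base 213 of the 3′ UTR, and 29.5% of 10332 tested 3′ UTRs hold a window with at least as many. The windows of *Pdgfra* (from base 232) and *Met* (from base 1083) have 20 purines each, which 65.6% of 3′ UTRs reach. The *Igf1r* window, from base 536, consists of 25 purines, which 3.96% reach. A longer 3′ UTR offers more windows, so these shares are not matched on length. In these letters the mRNA with the richest stretch (*Igf1r*) was not the one with the highest share in protrusions. These matches are descriptions of sequence and not evidence of a site.

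The levels spanned a wide range. *Axl*, a TAM receptor that binds the ligand GAS6, was the most abundant, with 453.5 and 416.8 TPM in protrusions, against 504.5 and 594.8 TPM in cell bodies. Of the tested genes, 97.6% had a lower mean. *Egfr*, the EGF receptor, was the least abundant, with 2.99 and 3.20 TPM in protrusions, against 3.44 and 8.60 TPM in cell bodies. The 10 receptors together made up 902.5 and 773.1 TPM in protrusions, against 977 and 1173 TPM in cell bodies. They accounted for 74.0% and 74.9% of the TPM of all listed receptor tyrosine kinases in protrusions, and for 76.4% and 79.9% in cell bodies.

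**Figure D1:**
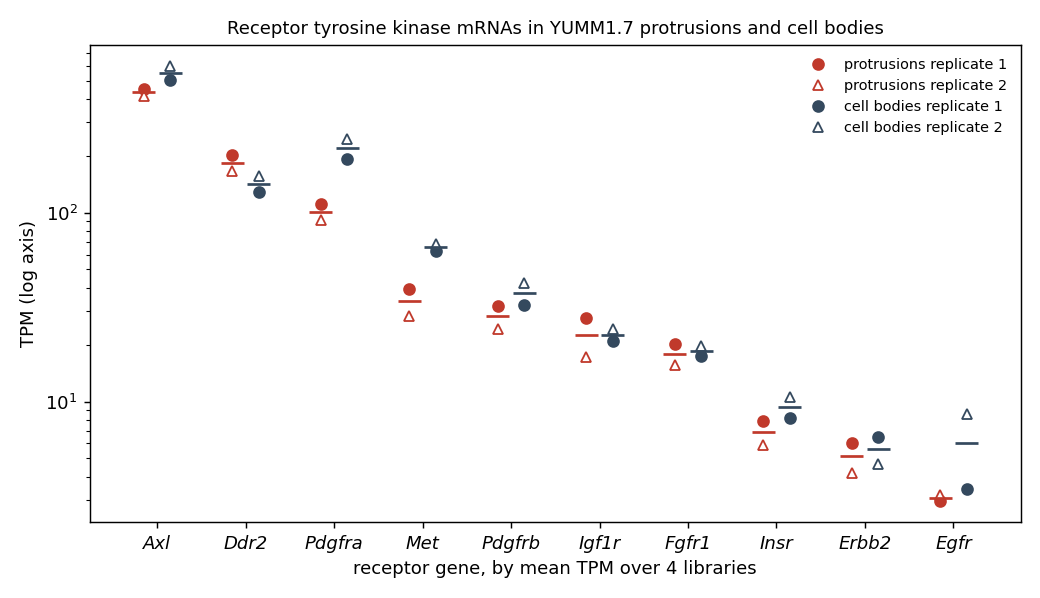
TPM (log axis) of each of the 10 receptor mRNAs, ordered by mean over the 4 libraries, with protrusions in red left of cell bodies in blue. Filled circles are replicate 1, open triangles replicate 2 and short lines the mean of 2 libraries. *Pdgfra* and *Met* show the clearest gaps between the fractions, while the values of *Igf1r*, *Fgfr1* and *Erbb2* overlap.

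The order of the receptors differed between the fractions in its upper part. In protrusions, from high to low, it was *Axl*, *Ddr2*, *Pdgfra*, *Met*, *Pdgfrb*, *Igf1r*, *Fgfr1*, *Insr*, *Erbb2* and *Egfr*. In that order *Met* and *Pdgfrb*, *Pdgfrb* and *Igf1r*, *Igf1r* and *Fgfr1*, and *Insr* and *Erbb2* had overlapping values, and the other neighbours did not overlap. In cell bodies *Pdgfra* stood above *Ddr2*, and at the low end the values of *Egfr* overlapped those of *Insr* and those of *Erbb2*. *Axl* held a steady part of the sum of the 10, at 50.2% and 53.9% in protrusions, against 51.6% and 50.7% in cell bodies. *Ddr2* held 22.2% and 21.5% of it in protrusions, against 13.2% in both cell body libraries. *Pdgfra* held 12.4% and 11.8% in protrusions, against 19.7% and 20.9% in cell bodies.

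The mRNAs of 2 of the 10 receptors, *Pdgfra* and *Met*, fell in protrusions, and 0 rose (at an unadjusted p under 0.05, 3 were lower, with *Axl* added, and 0 higher, where 18.7% and 12.6% of all tested genes were). On the log2(TPM + 0.5) scale, with limma and Benjamini-Hochberg adjustment over 11400 genes (called at an adjusted p under 0.05), 4.25% of the tested genes were called lower and 2.99% higher in protrusions. With replicates as a block in the fit (each replicate's fractions compared with each other), the same 2 receptors were called lower and none higher, against a background of 13.3% lower and 8.08% higher. Of the 10, 6 had both protrusion values below both cell body values, where 37.0% of tested genes did, and 1, *Ddr2*, had both above, where 26.4% did. The median log2 fold change of the 10 was −0.37, against −0.07 over all genes tested. Below 0 were 9 of the 10 values, and those of 6488 of the 11400 tested genes. After scaling to the median log2 value 7 of the 10 were below 0, as those of *Igf1r* and *Fgfr1* turned positive. TPM is a share of each fraction's RNA. In bulk RNA, less of an mRNA per cell and a smaller proportion of cells that express it among those contributing to a fraction cannot be told apart.

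The replicates differed in how far the receptors lay from equality. Within replicate 1 the median log2 fold change of the 10 was −0.07, and within replicate 2 it was −0.65. Over all tested genes these medians were 0.002 and −0.14. All 10 receptors had a higher share in protrusions in replicate 1 than in replicate 2, as did 69.7% of the tested genes. The difference was between 0.891 (*Erbb2*) and 19.4 percentage points (*Egfr*). In both replicates 7 of the 10 receptors were lower in protrusions, and the share of all tested genes that were so was not computed. Among these receptors *Pdgfrb* and *Insr* were nearly even in replicate 1 (log2 fold changes of −0.011 and −0.039).

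**Figure D2:**
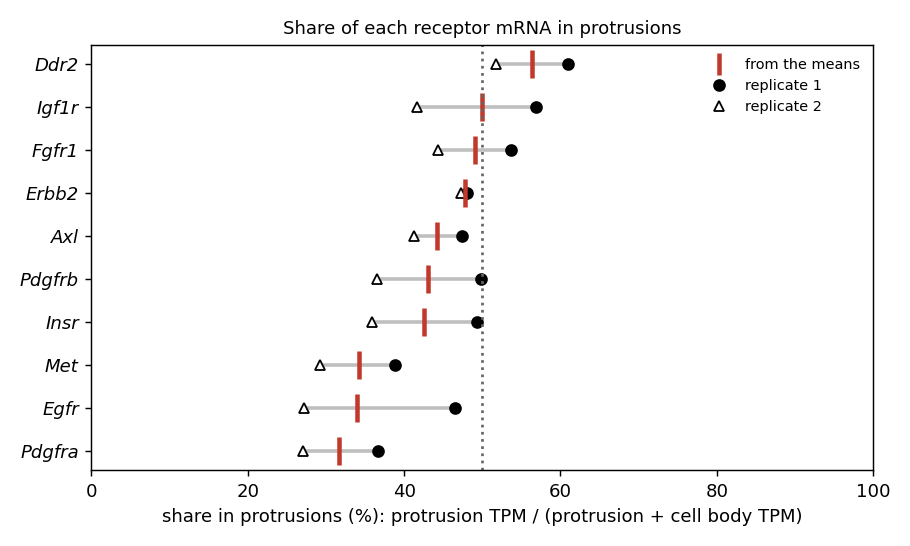
Share in protrusions of each receptor mRNA in percent, as protrusion TPM over the sum of protrusion and cell body TPM, from 31.7% (*Pdgfra*) to 56.4% (*Ddr2*). Red marks are from the means, filled circles from replicate 1, open triangles from replicate 2, and the dotted line is equal TPM in both fractions. Replicate 1 lies to the right of replicate 2 for all 10.

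The share in protrusions weighs both fractions equally, as protrusion TPM over the sum of protrusion and cell body TPM, and so does not count molecules per cell. Its median over the 10 receptors was 43.6%, against 48.7% over all tested genes. The highest share was that of *Ddr2* and the lowest that of *Pdgfra*.

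The PDGF receptors bind platelet-derived growth factors and are known for guiding the migration of mesenchymal cells. *Pdgfra* (chr5:75152291-75198204, plus strand) had 111.6 and 91.0 TPM in protrusions, against 192.4 and 244.9 TPM in cell bodies. Both protrusion libraries were well below both cell body libraries. Its mean was 101 ± 14.6 TPM in protrusions and 219 ± 37.1 TPM in cell bodies (SD, n = 2 each), which is 2.16-fold higher in cell bodies. Its log2 fold change was −1.10 (SE 0.17, 95% interval −1.52 to −0.69, limma adjusted p = 0.0350, and 0.00123 with the block). Of the tested genes, 1.37% had a lower fold change. Its share in protrusions was 31.7%, with 36.7% in replicate 1 and 27.1% in replicate 2. Leaving out any 1 library kept the fold change between −0.93 and −1.28, with adjusted p of 0.0509 without protrusion replicate 1, 0.167 without protrusion replicate 2, 0.0923 without cell body replicate 1 and 0.162 without cell body replicate 2, so the call did not hold with 3 libraries.

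*Pdgfrb* (chr18:61045150-61085067, plus strand), the other PDGF receptor, had 32.2 and 24.3 TPM in protrusions, against 32.5 and 42.2 TPM in cell bodies. The protrusion values were below the cell body values, but in replicate 1 they were nearly equal, with a share of 49.8%, against 36.5% in replicate 2. Its log2 fold change was −0.40 (95% interval −0.89 to 0.09, limma adjusted p = 0.231), which did not pass. There were 3.46 and 3.75 times as many TPM of *Pdgfra* as of *Pdgfrb* in protrusions, against 5.92 and 5.81 times in cell bodies. The ratio thus did not overlap between the fractions, and an exact test of 2 against 2 libraries cannot go below p = 0.333.

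*Met* (chr6:17463957-17573980, plus strand) encodes the receptor for hepatocyte growth factor, which makes epithelial cells scatter. It had 39.6 and 28.4 TPM in protrusions, against 62.4 and 68.6 TPM in cell bodies. The fractions were again clearly separate. Its mean was 34.0 ± 7.95 TPM in protrusions and 65.5 ± 4.40 TPM in cell bodies (SD, n = 2 each). Its log2 fold change was −0.95 (SE 0.18, 95% interval −1.41 to −0.50, limma adjusted p = 0.0440, and 0.00295 with the block). Its share in protrusions was 34.2%, with 38.8% in replicate 1 and 29.3% in replicate 2. Leaving out a library gave adjusted p of 0.0468 without protrusion replicate 1, 0.182 without protrusion replicate 2, 0.108 without cell body replicate 1 and 0.185 without cell body replicate 2. Neither *Met* nor *Pdgfra* passed without the trend in limma's prior variance (adjusted p of 0.0821 and 0.0750) or with no TPM minimum (0.0998 and 0.0877). *Pdgfra* and *Met* were the receptors that were lower by at least 0.5 on the log2 scale within each replicate. The share of all tested genes that were so was not computed.

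*Ddr2* (chr1:169972307-170088944, minus strand) encodes a receptor whose ligand is not a soluble growth factor but fibrillar collagen. It had 200.8 and 166.5 TPM in protrusions, against 128.9 and 155.3 TPM in cell bodies. It was the one receptor with both protrusion values above both cell body values, although protrusion replicate 2 was close to cell body replicate 2. Its log2 fold change was 0.37 (SE 0.15, 95% interval −0.00371 to 0.74, limma adjusted p = 0.163, and 0.0908 with the block), so it was not called higher. Its share was 56.4%, with 60.9% in replicate 1 and 51.7% in replicate 2. A correction for GC content moved the log2 fold change to 0.57, with an adjusted p of 0.0544 without the block and 0.0112 with it. The *Ddr2* transcript has a GC content of 45.1%, below the median of tested coding genes.

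The ratio of *Ddr2* to *Pdgfra*, the receptors with the highest and the lowest share, was above 1 in protrusions and below 1 in cell bodies. It was 1.80 and 1.83 in protrusions, against 0.670 and 0.634 in cell bodies. The pair was chosen after the values were seen, and the ratio is a description.

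*Axl* (chr7:25756500-25788733, minus strand) had a mean of 435 ± 26.0 TPM in protrusions and 550 ± 63.9 TPM in cell bodies (SD, n = 2 each). Both protrusion values were below both cell body values, and its share was 44.2%, with 47.3% in replicate 1 and 41.2% in replicate 2. Its log2 fold change was −0.33 (SE 0.13, 95% interval −0.64 to −0.02, limma adjusted p = 0.142, and 0.0894 with the block), which did not pass over all genes. *Axl* had the most reads of the 10, 31116 and 36077 in protrusions and 39549 and 39210 in cell bodies, so counting error was small beside the spread between replicates. AXL and MET are known to signal together in invasive cells. There were 11.4 and 14.7 times as many TPM of *Axl* as of *Met* in protrusions, against 8.09 and 8.67 times in cell bodies.

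The insulin receptor family has a growth-promoting member, *Igf1r*, and a metabolic one, *Insr*. *Igf1r* (chr7:67952257-68233667, plus strand) had 27.7 and 17.2 TPM in protrusions, against 21.0 and 24.1 TPM in cell bodies. The protrusion values enclosed those of the cell bodies, and the share was 49.9%, with 56.9% in replicate 1 and 41.7% in replicate 2. Its log2 fold change was −0.04 (95% interval −0.63 to 0.55, limma adjusted p = 0.930), and its sign turned under 5 of 13 alternative settings. *Insr* (chr8:3150922-3279617, minus strand) had 7.93 and 5.91 TPM in protrusions, against 8.16 and 10.5 TPM in cell bodies. Its values did not overlap, but replicate 1 was nearly even, with a share of 49.3%, and the log2 fold change of −0.41 did not pass (95% interval −0.95 to 0.13, limma adjusted p = 0.253). There were 3.50 and 2.91 times as many TPM of *Igf1r* as of *Insr* in protrusions, against 2.57 and 2.29 times in cell bodies.

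*Fgfr1* (chr8:25518759-25575718, plus strand), a receptor of fibroblast growth factors, had 20.1 and 15.7 TPM in protrusions, against 17.4 and 19.7 TPM in cell bodies. As with *Igf1r*, the values overlapped, and the replicates moved in opposite directions, with shares of 53.7% and 44.3%. The log2 fold change was −0.06 (95% interval −0.48 to 0.37, limma adjusted p = 0.854), so an mRNA change of 2-fold lay outside the interval.

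The ErbB receptors were the least abundant. *Erbb2* (chr11:98412484-98437716, plus strand), which binds no ligand itself and pairs with other ErbB receptors, had 6.05 and 4.19 TPM in protrusions, against 6.53 and 4.69 TPM in cell bodies. Its share was nearly the same in both replicates, 48.1% and 47.2%. The log2 fold change was −0.12 (95% interval −0.75 to 0.51, limma adjusted p = 0.777).

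For *Egfr* (chr11:16752203-16913907, plus strand) 1 cell body library decided the value. Cell body replicate 2, at 8.60 TPM, stood far above the other 3 libraries, which lay between 2.99 and 3.44 TPM. The share in protrusions was 34.0%, with 46.5% in replicate 1 and 27.1% in replicate 2. The log2 fold change was −0.74 (SE 0.40, 95% interval −1.72 to 0.25, limma adjusted p = 0.261). Without cell body replicate 2 it was −0.13, and without cell body replicate 1 it was −1.34. With 260 to 718 reads, *Egfr* was among the least deeply covered of the 10, beside *Erbb2* with 304 to 503 reads.

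Fibroblast markers were also highest in cell body replicate 2, although not all followed the pattern of *Egfr*. In protrusions *Pdpn* was higher in replicate 2 than in replicate 1 and *Col6a3* was lower, while *Egfr* had 2.99 and 3.20 TPM. *Col6a3* was at 112 and 83.5 TPM in protrusions, against 110 and 166 TPM in cell bodies, and *Pdpn* at 16.7 and 26.8 TPM, against 27.9 and 57.5 TPM. *Col3a1* was likewise highest in cell body replicate 2. The 7 measured fibroblast markers summed to 232 and 226 TPM in protrusions, against 280 and 491 TPM in cell bodies, and 0 of the 5 tested passed (with the block, 2 were lower, *Col3a1* and *Pdpn*, and 0 higher, and at an unadjusted p under 0.05, 1 and 0). The part of such differences between libraries in the receptors' values was not tested. Macrophage and leukocyte markers were low, with 4.50 and 4.38 TPM in sum in protrusions, against 3.92 and 7.23 TPM in cell bodies, and neither *Cd68* nor *Cd14*, the 2 tested, passed. Among all tested genes, limma called 4.25% lower and 2.99% higher in protrusions at an adjusted p under 0.05. With the block the shares were 13.3% and 8.08%, and at an unadjusted p under 0.05, 18.7% and 12.6%.

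**Figure D3:**
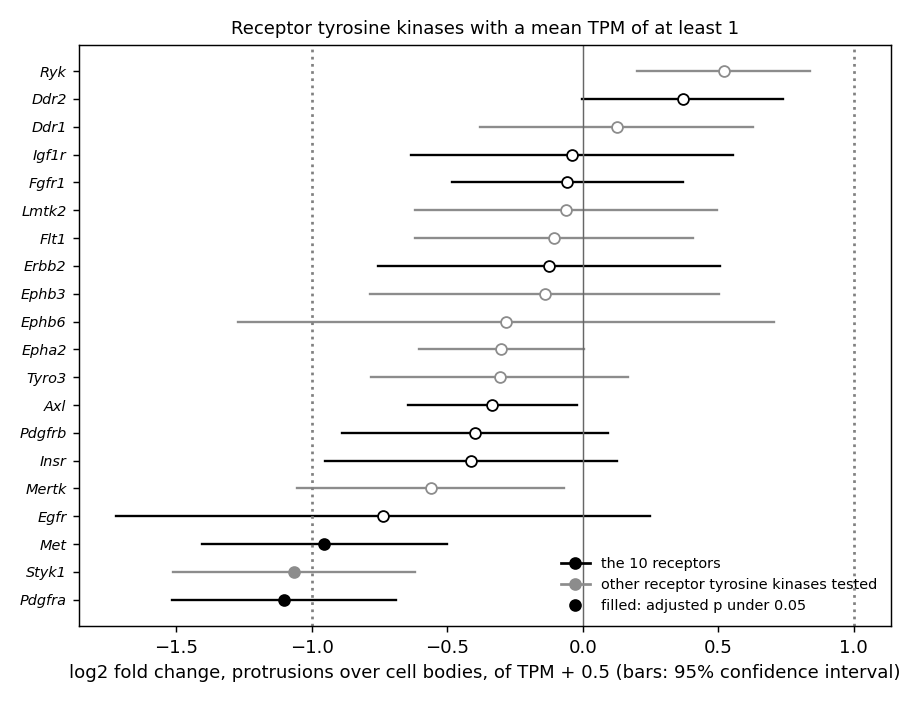
Log2 fold change of TPM + 0.5, protrusions over cell bodies, with 95% confidence intervals, for the 20 receptor tyrosine kinases that averaged 1 TPM or more. Black marks the 10 receptors, grey the other 10, filled points an adjusted p under 0.05, and dotted lines 2-fold changes. *Pdgfra*, *Styk1* and *Met* are the filled points, and all 3 lie below 0.

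Of the 48 other receptor tyrosine kinases listed, 36 were in the table, 26 of them were below 1 TPM in all 4 libraries and 10 were tested. Of these 10, 1 was lower, 0 were higher and 9 did not pass (with the block, 2 were lower and 1 higher, and at an unadjusted p under 0.05, 2 and 1). Their median log2 fold change was −0.21. For this and the other lists, the shares over all tested genes were 4.25% lower and 2.99% higher. With the block they were 13.3% and 8.08%, and at an unadjusted p under 0.05, 18.7% and 12.6%. *Styk1*, which encodes a kinase-like membrane protein, fell in protrusions, with 6.47 and 5.06 TPM, against 13.0 and 12.1 TPM in cell bodies (log2 fold change −1.06, SE 0.18, limma adjusted p = 0.0382). *Ryk*, a Wnt receptor with an inactive kinase domain, had 133 and 120 TPM in protrusions, against 94.8 and 81.6 TPM in cell bodies (log2 fold change 0.52, limma adjusted p = 0.0649, and 0.0133 with the block). *Mertk*, a TAM receptor like *Axl*, had 57.2 and 39.6 TPM in protrusions, against 65.4 and 75.9 TPM in cell bodies (log2 fold change −0.56, limma adjusted p = 0.126, and 0.0391 with the block). *Epha2*, an ephrin receptor, had 62.6 and 54.2 TPM in protrusions, against 71.7 and 71.9 TPM in cell bodies, and did not pass (limma adjusted p = 0.166). Over all 20 tested receptors the median was −0.29, with 3 lower and 0 higher (4 and 1 with the block, and 5 and 1 at an unadjusted p under 0.05).

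Ligands of the 10 receptors were measured in the same cells. Over all tested genes, 4.25% were called lower and 2.99% higher. With the block these shares were 13.3% and 8.08%, and at an unadjusted p under 0.05, 18.7% and 12.6%. Of 31 listed, 14 were tested, of which 2 were lower, 0 were higher and 12 did not pass (with the block, 8 were lower and 0 higher, and at an unadjusted p under 0.05, 9 and 0), with a median log2 fold change of −0.63. Both that fell without the block encode ligands of the EGF receptor. With the block, those called lower also included ligands of other receptors. *Ereg* (epiregulin) had 97.1 and 82.0 TPM in protrusions, against 141 and 169 TPM in cell bodies (log2 fold change −0.79, limma adjusted p = 0.0425). *Areg* (amphiregulin) averaged 19.5 ± 2.15 TPM in protrusions and 34.8 ± 1.72 TPM in cell bodies (SD, n = 2 each, log2 fold change −0.82, limma adjusted p = 0.0383). These ligands were far more abundant than *Egfr* itself. *Col1a2*, a chain of the collagen that DDR2 binds, had 530 and 376 TPM in protrusions, against 503 and 449 TPM in cell bodies, and the values overlapped. *Col1a1*, which encodes the other chain, was far lower, with 2.90 and 6.14 TPM in protrusions, against 1.57 and 4.55 TPM in cell bodies. *Col3a1*, another fibrillar collagen, had 98.4 and 104 TPM in protrusions, against 135 and 243 TPM in cell bodies (log2 fold change −0.84, limma adjusted p = 0.105, and 0.00592 with the block).

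Genes for co-receptors, shedding proteases and processing of the receptors had a median log2 fold change of −0.45. Over all tested genes, 4.25% were called lower and 2.99% higher (13.3% and 8.08% with the block). Of 30 listed, 25 were tested, of which 5 were lower, 0 were higher and 20 did not pass (with the block, 13 were lower and 1 higher, and at an unadjusted p under 0.05, 14 and 2). *Hsp90b1*, the HSP90 chaperone of the endoplasmic reticulum, had 930 and 674 TPM in protrusions, against 1781 and 1789 TPM in cell bodies (log2 fold change −1.17, limma adjusted p = 0.0349). *Itgb1*, the integrin subunit shared by many fibronectin and collagen receptors, had 535 and 381 TPM in protrusions, against 992 and 930 TPM in cell bodies (log2 fold change −1.09, limma adjusted p = 0.0366). *Adam10* and *Adam17*, proteases that release ErbB ligands and shed receptors, fell by 0.65 and 1.01 on the log2 scale (limma adjusted p = 0.0438 and 0.0400). *Sdc1*, a heparan sulfate proteoglycan that binds growth factors, fell by 0.84 (limma adjusted p = 0.0351). The cytosolic HSP90 genes did not pass: the log2 fold change was 0.29 for *Hsp90ab1* and −0.45 for *Hsp90aa1* (limma adjusted p = 0.146 and 0.0636). With the block *Hsp90aa1* was called lower (adjusted p = 0.0257).

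The list of adaptors and that of inhibitors, some of which are membrane proteins, had medians above 0. Over all tested genes, 4.25% were called lower and 2.99% higher (13.3% and 8.08% with the block). The 1 gene called higher in each list without the block lay near that share. Of the 30 adaptors and proximal signalling genes listed, 28 were tested, of which 0 were lower, 1 was higher and 27 did not pass (with the block, 0 were lower and 5 higher, and at an unadjusted p under 0.05, 2 and 6), with a median of 0.23. *Pik3r2*, a regulatory subunit of phosphoinositide 3-kinase, rose in protrusions, with 40.8 and 43.9 TPM, against 23.9 and 22.0 TPM in cell bodies (log2 fold change 0.87, limma adjusted p = 0.0349). The most abundant of this list, *Rasa1*, *Crk* and *Ptpn11*, had log2 fold changes of 0.11, −0.04 and 0.35 and did not pass. Of the 31 inhibitors and phosphatases listed, 25 were tested, of which 0 were lower, 1 was higher and 24 did not pass (with the block, 2 were lower and 5 higher, and at an unadjusted p under 0.05, 4 and 8), with a median of 0.24. *Sh2b3*, an adaptor that restrains receptor signalling, rose, with 45.6 and 43.8 TPM in protrusions, against 24.0 and 26.5 TPM in cell bodies (log2 fold change 0.81, limma adjusted p = 0.0351). *Errfi1*, an inhibitor of ErbB receptors, *Grb10*, an inhibitor of the insulin receptor family, and *Spred1*, an inhibitor of RAS activation, had log2 fold changes of −0.18, −0.21 and 0.39 and did not pass.

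**Figure D4:**
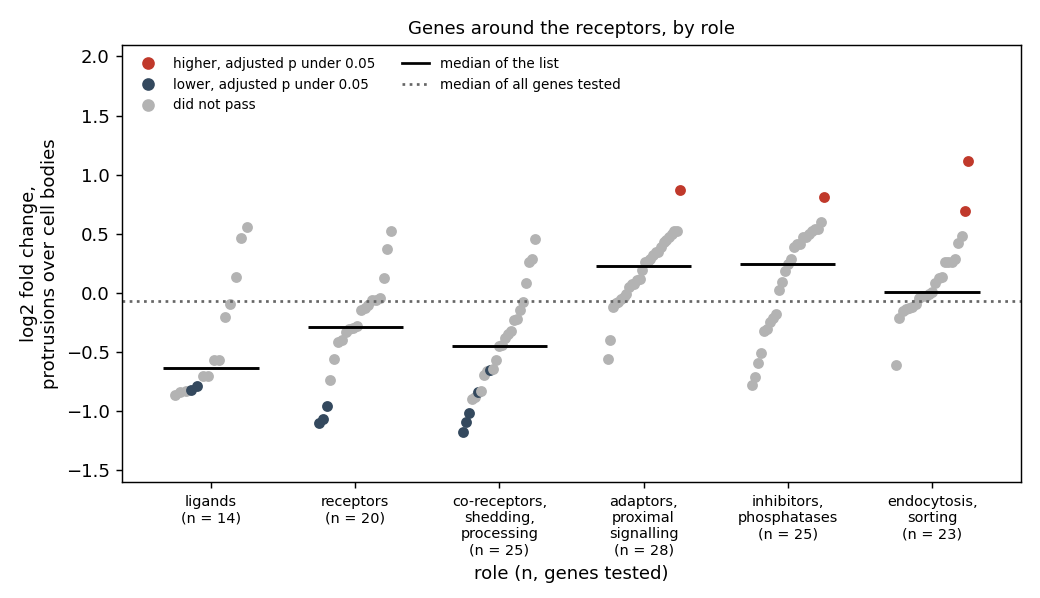
Log2 fold change of TPM + 0.5, protrusions over cell bodies, of each tested gene around the receptors, grouped by role from ligands to endocytosis. Red points rose and blue points fell at an adjusted p under 0.05, solid lines are the medians of the lists and the dotted line is the median of all genes tested, −0.07. Blue points are in the ligands, receptors and co-receptors, and red points in the adaptors, inhibitors and endocytosis genes. Over all tested genes, 4.25% were called lower and 2.99% higher. With replicates as a block (not drawn), the receptor and co-receptor lists each had 1 gene called higher, and the inhibitors had 2 called lower.

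Of the 24 genes for receptor endocytosis and sorting, 23 were tested, of which 0 were lower, 2 were higher and 21 did not pass (with the block, 0 were lower and 3 higher, and at an unadjusted p under 0.05, 0 and 3), with a median of 0.01. *Epn1*, an epsin that draws ubiquitinated receptors into clathrin coats, had 86.0 and 95.1 TPM in protrusions, against 38.9 and 44.4 TPM in cell bodies (log2 fold change 1.11, limma adjusted p = 0.0342). *Hgs*, which sorts ubiquitinated receptors for degradation, averaged 43.0 ± 4.32 TPM in protrusions and 26.4 ± 2.32 TPM in cell bodies (SD, n = 2 each, log2 fold change 0.69, limma adjusted p = 0.0476). *Rab7*, *Rab5c* and *Rab11a*, the most abundant of the list, had log2 fold changes of 0.27, 0.42 and 0.14 and did not pass, although *Rab5c* was called higher with the block (limma adjusted p = 0.0309). Over all tested genes, 4.25% were called lower and 2.99% higher (13.3% and 8.08% with the block). The medians of these lists were set beside that of all tested genes as descriptions, and the lists were not tested against each other.

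RNAs found mainly in the nucleus were used to check the separation. Of 6 tested, 3 were lower in protrusions (*Rnu11*, *Rnu12* and *Mir17hg*), 0 were higher and 3 did not pass (with the block, 4 were lower and 0 higher, and at an unadjusted p under 0.05, 4 and 0), with a median log2 fold change of −1.15. *Malat1*, the most abundant, had 1368 and 1420 TPM in protrusions, against 1833 and 2781 TPM in cell bodies (log2 fold change −0.70, limma adjusted p = 0.0874, and 0.00895 with the block), and *Neat1* had 99.4 and 72.2 TPM, against 101 and 164 TPM. Among all tested genes, limma called 4.25% lower and 2.99% higher in protrusions at an adjusted p under 0.05. With the block the shares were 13.3% and 8.08%, and at an unadjusted p under 0.05, 18.7% and 12.6%. Nuclear RNA was still present in the protrusion libraries, and its part in the receptors' values was not tested.

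Among 9372 tested genes averaging 5 TPM or more, those with the pattern most like *Ddr2* over the 4 libraries were *Arhgef11*, *Sec16a* and *Dpysl2*, at distances of 0.0346, 0.0445 and 0.0609 (Euclidean, on log2(TPM + 0.5) centred per gene). *Sec16a*, which organizes exit sites of the endoplasmic reticulum, had 23.8 and 19.9 TPM in protrusions, against 14.6 and 18.1 TPM in cell bodies. Nearest to *Pdgfra* were *Alg8*, *Pdia4* and *Tmem209*, at distances of 0.0770, 0.0924 and 0.101. *Pdia4*, a disulfide isomerase of the endoplasmic reticulum, had 208 and 159 TPM in protrusions, against 360 and 429 TPM in cell bodies. With 4 libraries the likeness is given as a description only.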

How the data were processed

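The authors separated protrusions from cell bodies in YUMM1.7 cultures, and the RNA was sequenced as strand-specific, rRNA-depleted total RNA, and samples were grouped by the submitters' labels. The authors deposited 1 table with TPM per library on mm10. Their methods name TopHat, whereas STAR, featureCounts, FastQC and edgeR are listed in the submitters' processing notes. The table also holds the authors' comparison (log2 fold change, likelihood ratio, p-value and FDR), which was not used, and their mean log2 CPM, deposited beside it, which served only to scale recovered reads. The number of per-sample columns left unused was 0.

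Because the table holds TPM and not counts, limma 3.58.1 under R 4.3.3 was run on log2(TPM + 0.5) of the 11400 genes averaging 1 TPM or more, letting the prior variance follow the mean level, with Benjamini-Hochberg adjustment. All 10 receptors passed this filter. Residual degrees of freedom were 2 (1 with the block) and prior degrees of freedom 3.81 (10.2 with the block). The added 0.5 shrinks the fold changes of weakly expressed genes. Whole reads were recovered from ratios between a gene's libraries within 0.01 for all 16537 genes, of which 3714 had more than 1 solution, none of them a receptor described here. Protrusions and cell bodies of a replicate came from the same inserts, and their deviations from the fraction means correlated at 0.45 over 11400 genes, so the replicate number was taken to pair them. The blocked value is given where it changes the call of a named gene or a count.

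The 10 receptors and the lists of other receptors, ligands, adaptors and proximal signalling genes, inhibitors and phosphatases, co-receptors, shedding and processing genes, endocytosis genes, cell type markers and nuclear RNAs were chosen with earlier results of these data known. Named are the 10 receptors, the called members and the 3 most abundant tested members of each list, and the 3 nearest patterns of the receptors with the highest and lowest share. *Col1a1* is given in addition, beside *Col1a2*. The pairs of receptors set in ratios were chosen after their values were seen. Transcript lengths, GC content and 3′ UTRs came from GENCODE for GRCm38, where 15710 genes matched by symbol and 642 by synonym. Alternatives were the block, other pseudocounts (0.1 and 1), TPM minimums (none and 5), median scaling, no trend, a GC correction with and without the block, and leaving out each library. The fit was tested on simulated data, where it recovered the fold changes. The share of false calls lay above the nominal level in every set, more so with the block. Genes named here as called without the block had adjusted p from 0.0273 (*Rnu12*) to 0.0476 (*Hgs*). All of these calls are therefore uncertain, and the smaller adjusted p with the block are not firmer support.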

Additional observations from a re-analysis of the deposited data

How the results depend on the processing

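The fold changes of *Axl*, *Ddr2*, *Pdgfra*, *Met*, *Pdgfrb*, *Insr* and *Egfr* kept their sign under all 13 alternatives (12 for *Egfr*, which is below a minimum of 5 TPM). *Igf1r* turned to 0.040 after scaling to the median and to 0.062 after GC correction with or without the block, and *Fgfr1* to 0.022 after scaling. Leaving out a library gave −0.38 to 0.30 for *Igf1r*, −0.23 to 0.12 for *Fgfr1* and −0.36 to 0.12 for *Erbb2*, with the positive values in 2 of 4 cases each (without protrusion replicate 2 for all 3, and without cell body replicate 2 for *Igf1r* and *Fgfr1* or cell body replicate 1 for *Erbb2*). The count of receptors called lower was 0 with no TPM minimum and 0 without the trend, and 0 to 1 when a library was left out. That called higher was 1, *Ddr2*, after GC correction with the block, which also called *Pdgfrb* lower (adjusted p = 0.0445). Over all genes, limma called 1513 lower and 921 higher with the block, and 1603 and 1374 with GC correction and the block. It called 801 lower with a minimum of 5 TPM, and 0 lower and 0 higher both with no minimum (unadjusted p under 0.05 in 3630 genes) and without the trend (3416 genes). Leaving out a library gave 0 to 200 lower and 0 to 21 higher (1890 to 3148 genes unadjusted). Fewer samples remain there, and the cause of the other changes was not tested. For *Pdgfra* the adjusted p was 0.0877 with no minimum and 0.0750 without the trend, and for *Met* 0.0998 and 0.0821. With 2 libraries a fraction, the spread of a gene rests largely on that of the other genes.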
